A study of Mus musculus with 16 samples.

Results

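Gene families that set how pre-mRNA is spliced, the SR proteins, the hnRNPs and the SF3 complexes, were measured in mouse brain after lipopolysaccharide (LPS), the cell wall component of Gram-negative bacteria used to start systemic inflammation. The members are the protein-coding genes whose symbol begins with Srsf and a digit, Hnrnp, Sf3a or Sf3b. The rule took 40 genes of the 33289 measured, 11 Srsf, 20 Hnrnp, 3 Sf3a and 6 Sf3b genes, and left out the pseudogenes Hnrnpa1l2-ps and Hnrnpa1l2-ps2. All 40 passed the filter on low values, under which 17349 genes were tested.

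C57BL/6J mice of 3 to 4 months were perfused with PBS 8 h after 1 injection, and RNA was taken from a hemi-brain. The 4 groups were LPS-injected mice labelled Lcn2-/-, LPS-injected wild type (WT) mice, saline-injected mice labelled Lcn2-/- and saline-injected WT mice, with 4 libraries each, although the series' design text gives 3 to 4 replicates. Lipocalin-2, the product of Lcn2, is secreted in inflammation and sequesters the iron carriers of bacteria. All values are RPKM or log2 RPKM, reads scaled by transcript length and by the reads of the library, after correction for GC content and length, so levels can be compared between genes. No read counts were used here and the depth of the libraries is unknown.

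The targeted gene was checked first. Lcn2 lay at 40.2, 34.1, 38.3 and 37.2 RPKM in LPS libraries labelled Lcn2-/-, against 71.5, 67.8, 66.7 and 82.7 RPKM in WT LPS libraries. After saline it was under 1 RPKM in all 8 libraries, at 0.132 to 0.351 RPKM in those labelled Lcn2-/- and 0.0650 to 0.204 RPKM in WT libraries. Lcn2 transcript was therefore measured in every LPS library labelled Lcn2-/-, at a level below all WT LPS libraries. The sources used here do not say which part of the gene the allele removes, and a value per gene does not resolve it, so the genotype is given below as a label. Saline replicate 4 labelled Lcn2-/- stood apart from the other 15 libraries, with 17112 genes at 0.5 RPKM or above, against 16372 to 16497, and a second principal component score of 0.885, against -0.186 to 0.130. Its sample title alone ends in a letter, b, whose meaning the sources used here do not give. The members' called changes and interactions that use this library are given with and without it. The labels do not say how the replicates of a group were drawn, and the p-values refer to the spread among these libraries, which may be technical.

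Pre-mRNA splicing removes introns in steps carried out by the spliceosome. SR proteins carry serine- and arginine-rich domains, bind exonic enhancers and help the spliceosome find exons, and their activity depends on phosphorylation by the SRPK and CLK kinases. The hnRNPs are abundant nuclear RNA-binding proteins that coat nascent transcripts, often act against SR proteins at the same exons, and also take part in mRNA export, transport and decay, including that of AU-rich cytokine mRNAs. SF3A and SF3B are the protein complexes of the U2 particle that anchor it at the intron branch point. Neurons use a large repertoire of alternative exons, and brain expresses these factors at high levels.

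Most members were among the more highly expressed genes of the brain. In WT saline libraries their mean level went down from 118 RPKM for Hnrnpa2b1, which binds and transports RNA in neurons and oligodendrocytes, to 3.26 RPKM for Sf3b4, which contacts the intron upstream of the branch point. Of the 40 genes, 15 lay at 30 RPKM or above, 15 from 10 to 30 RPKM and 10 under 10 RPKM. Hnrnpa2b1 lay above 98.6% of the genes tested and Sf3b4 above 42.4%. In the order of levels, 26 of the 39 neighbouring pairs were apart by more than the SD between libraries, and the other pairs, such as Hnrnph1 (36.6 RPKM) and Hnrnpc (36.6 RPKM), were not.

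The highest member of each family was as follows. Hnrnpa2b1 lay at 118, 119, 117 and 117 RPKM in LPS libraries labelled Lcn2-/-, 117, 122, 125 and 119 RPKM in WT LPS libraries, 114, 114, 112 and 122 RPKM in saline libraries labelled Lcn2-/-, and 112, 132, 114 and 114 RPKM in WT saline libraries. These groups overlapped throughout, and Hnrnpa2b1 passed no test. Sf3b2, which pairs with Sf3b4 in the SF3B complex, lay at 50.1, 51.0, 52.4 and 53.1 RPKM in LPS libraries labelled Lcn2-/-, 50.7, 52.1, 49.8 and 52.4 RPKM in WT LPS libraries, 52.1, 51.7, 50.8 and 46.8 RPKM in saline libraries labelled Lcn2-/-, and 49.4, 51.7, 48.2 and 47.6 RPKM in WT saline libraries. Its groups overlapped too, and it passed no test. Srsf2 (SC35, an SR protein that stays in the nucleus) and Sf3a2 had the highest levels of their families, at 35.4 and 8.67 RPKM in WT saline libraries, and are described below.

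Levels varied little between groups. In 26 of the 40 genes, the 4 group means lay within 0.2 log2 of each other. The summed level of the 40 genes was 1074 to 1093 RPKM in LPS libraries labelled Lcn2-/-, 1064 to 1092 in WT LPS, 1017 to 1068 in saline libraries labelled Lcn2-/- and 1053 to 1091 in WT saline libraries. The SD between libraries of a group, as limma moderates it toward a trend on the mean level, had a median of 0.0673 log2 over the members. Over all genes tested it was 0.109.

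**Figure D1:**
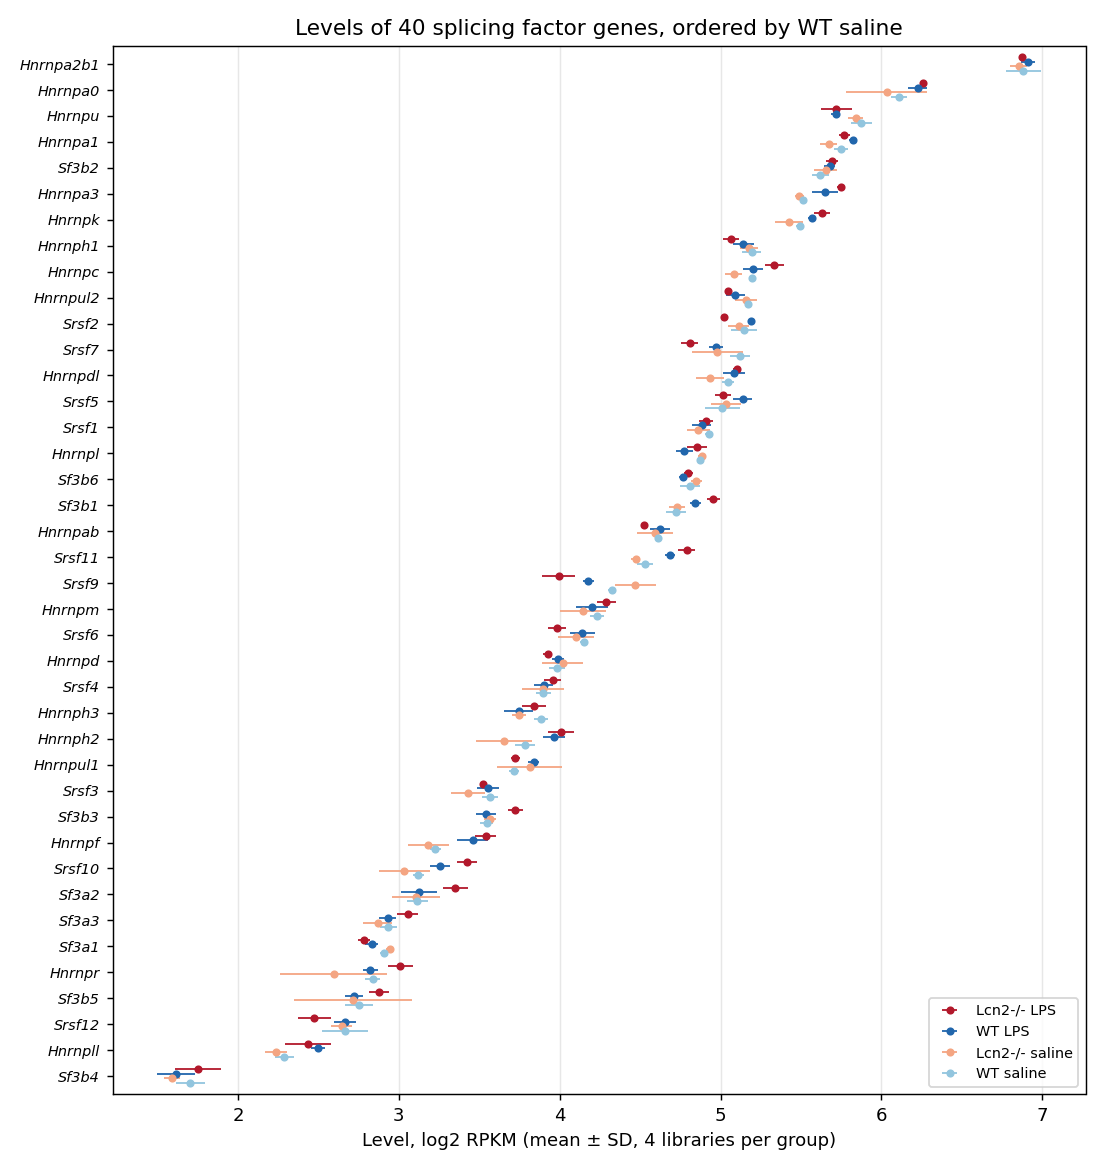
Level of each of the 40 genes in log2 RPKM (x axis) in the 4 groups, ordered by the WT saline mean; points are means and bars the SD over 4 libraries. From Hnrnpa2b1 at the top to Sf3b4 at the bottom, most genes have 4 points close together. Srsf9, Hnrnpr and Srsf10 have the widest ranges of group means. For Hnrnpr the WT LPS and WT saline means lie together, at 2.82 and 2.84.

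The first comparison asked what LPS did in the brains labelled Lcn2-/-. Of the 40 members, 16 rose and 7 fell at an adjusted p under 0.05 (limma, Benjamini-Hochberg over all genes tested), so that 57.5% were called. Among all genes tested, 48.3% were called in this comparison, 20.7% higher and 27.7% lower, against 40% and 17.5% of the members. The median change of the members was 0.094 log2, against -0.028 for all genes tested. With GC content and length trends removed, 12 rose and 10 fell, 17 of them shared with the calls above, and 50.05% of all genes were called. Without saline replicate 4 labelled Lcn2-/-, again 16 members rose and 7 fell, 22 of them shared with the calls above, and the median change of the 40 members was 0.047. By family, 2 of 11 Srsf genes rose and 3 fell, 10 of 20 Hnrnp genes rose and 3 fell, 2 of 3 Sf3a genes rose and 1 fell, and 2 of 6 Sf3b genes rose.

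Among the SR proteins, the fall of Srsf9 was the largest in size of any member. Srsf9 (SRp30c), a small SR protein that regulates alternative exons, lay at 17.6, 15.0, 15.3 and 15.9 RPKM in LPS libraries labelled Lcn2-/-, against 21.2, 20.8, 21.6 and 25.3 RPKM in saline libraries labelled Lcn2-/-. Every LPS library was below every saline library, and saline replicate 4 was the highest. Its level after LPS was 0.718 times that after saline (log2 -0.48 ± 0.06, ± SE, n = 4 against 4, adjusted p = 6.5e-06), and -0.41 without saline replicate 4.

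Srsf7 (9G8), which also serves mRNA export, fell to 28.8, 26.6, 28.7 and 28.1 RPKM after LPS, against 35.1, 31.7, 32.8 and 27.1 RPKM after saline in libraries labelled Lcn2-/-. The groups overlapped through saline replicate 4, the lowest of its group. The change was -0.17 ± 0.06 (adjusted p = 0.029), and -0.24 without that library (adjusted p = 0.00019). Srsf12, an SR-related protein of low level here, fell by 0.17 on the log2 scale (adjusted p = 0.046), with 5.04 to 5.94 RPKM after LPS, against 5.94 to 6.58 RPKM after saline.

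The SR members that rose were Srsf11 and Srsf10. Srsf11 (p54), an SR-related factor, had 27.5, 28.7, 28.0 and 26.4 RPKM after LPS, against 22.2, 21.8, 22.8 and 22.0 RPKM after saline, in libraries labelled Lcn2-/-. The groups did not overlap and the rise was 1.25-fold (log2 0.32 ± 0.03, adjusted p = 1.3e-06), with the lowest adjusted p of any member. Srsf10 (SRp38), which turns into a splicing repressor when it loses its phosphates after heat shock, had 10.9, 10.9, 11.1 and 10.1 RPKM after LPS, against 8.88, 7.99, 8.97 and 7.08 RPKM after saline. All LPS values were again higher, and the rise was 0.39 ± 0.06 (adjusted p = 0.00013), or 0.32 without saline replicate 4, the lowest saline library. The 6 uncalled Srsf genes, Srsf1, Srsf2, Srsf3, Srsf4, Srsf5 and Srsf6, had changes of -0.12 to 0.10 log2.

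Among the 20 hnRNPs, 10 rose and 3 fell. Hnrnpc, whose tetramers bind uridine tracts and package nascent RNA, had 38.8, 41.4, 42.1 and 39.1 RPKM after LPS, against 35.4, 33.1, 34.4 and 32.6 RPKM after saline, in libraries labelled Lcn2-/-. Its groups did not overlap, with a rise of 0.25 ± 0.04 (adjusted p = 5e-05). Hnrnpa3, a close relative of Hnrnpa2b1, had 52.8, 54.7, 52.9 and 54.4 RPKM after LPS, against 45.3, 45.9, 45.0 and 43.7 RPKM after saline. The groups lay well apart, and the rise was 0.26 ± 0.03 (adjusted p = 1.9e-05). Hnrnpf, which binds G-tracts, had 12.1, 11.2, 12.02 and 11.2 RPKM after LPS, against 10.04, 9.17, 9.13 and 8.10 RPKM after saline. The groups did not overlap, and the rise was 0.36 ± 0.06 (adjusted p = 0.00017).

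The other hnRNPs that rose were Hnrnpr (0.42), which binds actin mRNA in axons, Hnrnph2 (0.35), Hnrnpa0 (0.22), which binds AU-rich cytokine mRNAs in mouse macrophages, Hnrnpk (0.20), a poly-C binding protein, Hnrnpll (0.20), which regulates CD45 exons in lymphocytes, Hnrnpdl (0.17) and Hnrnpa1 (0.10). For 2 of these the size rested on saline replicate 4. Hnrnpr had 8.17, 8.63, 7.80 and 7.65 RPKM after LPS, against 7.04, 6.81, 6.48 and 4.28 RPKM after saline, and its rise was 0.25 ± 0.05 without that replicate (adjusted p = 0.00037). Hnrnpa0 had 75.8 to 77.4 RPKM after LPS, against 71.6, 69.9, 72.9 and 50.5 RPKM after saline, and its rise was 0.10 ± 0.03 without it (adjusted p = 0.020). Both kept their direction and passed the test without that library.

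The hnRNPs that fell under the Lcn2-/- label were Hnrnpul2, Hnrnpu and Hnrnph1. Hnrnpul2, a relative of Hnrnpu, had 32.8, 33.0, 33.5 and 32.8 RPKM after LPS, against 34.8, 34.8, 34.9 and 38.3 RPKM after saline (log2 -0.11 ± 0.03, adjusted p = 0.016). Hnrnpu (SAF-A), which ties RNA to chromatin, had 57.1, 48.8, 51.3 and 53.9 RPKM after LPS, against 58.9, 57.9, 57.7 and 54.7 RPKM after saline (log2 -0.12 ± 0.04, adjusted p = 0.035). Hnrnph1, like Hnrnpf a G-tract binder, had 34.6, 33.0, 34.4 and 32.1 RPKM after LPS, against 36.5, 34.2, 36.6 and 37.3 RPKM after saline (log2 -0.11 ± 0.04, adjusted p = 0.037). Hnrnpul2 did not overlap between the groups, whereas Hnrnpu and Hnrnph1 did. The 7 uncalled Hnrnp genes, which include Hnrnpd (AUF1, a factor in the decay of AU-rich mRNAs) and Hnrnpl, had changes of -0.09 to 0.14 log2.

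Within SF3A the members went different ways. Sf3a1, which joins the U2 particle to the U1 particle and holds the SF3A complex together, had 6.97, 6.63, 6.94 and 7.02 RPKM after LPS, against 7.80, 7.81, 7.68 and 7.51 RPKM after saline in libraries labelled Lcn2-/-. Every LPS value was lower (log2 -0.16 ± 0.03, adjusted p = 0.00093). Sf3a2 had 9.48, 10.7, 10.5 and 10.1 RPKM after LPS, against 9.12, 9.13, 8.93 and 7.39 RPKM after saline, a rise of 0.24 ± 0.07 (adjusted p = 0.010) that was 0.17 without saline replicate 4 (adjusted p = 0.022). Sf3a3 rose by 0.19 (adjusted p = 0.0061), a call that ended with GC content and length trends removed (0.091, adjusted p = 0.14). Within SF3B, Sf3b1, the large subunit that clamps the branch point helix, had 29.8, 31.9, 31.4 and 30.9 RPKM after LPS, against 27.7, 25.7, 25.98 and 26.7 RPKM after saline, with no overlap (log2 0.23 ± 0.04, adjusted p = 0.0001). Sf3b3, the partner of Sf3b1 in the complex core, rose by 0.16 (adjusted p = 0.0028). Sf3b2, Sf3b4, Sf3b5 and Sf3b6 did not pass, with changes of -0.05 to 0.16.

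Of these 23 calls, 13 held under every alternative tried, among them Srsf9, Srsf10, Srsf11, Hnrnpa3, Hnrnpc, Hnrnpf, Hnrnpr, Sf3a1 and Sf3b1. Removing GC content and length trends ended the calls of Sf3a3, of Hnrnpdl (0.096, adjusted p = 0.11), of Hnrnpul2 (-0.066, adjusted p = 0.076), of Hnrnpa0 (0.16, adjusted p = 0.073), of Hnrnpa1 (0.040, adjusted p = 0.26) and of Hnrnpu (-0.063, adjusted p = 0.36). Leaving out 1 library ended the call for Hnrnpa0 (any LPS library labelled Lcn2-/-), Hnrnpa1 (LPS replicate 4, saline replicate 2 or 3), Hnrnph1 (LPS replicate 2 or 4, saline replicate 1, 3 or 4), Hnrnpll (LPS replicate 2 or 3), Hnrnpu (LPS replicate 2 or 3, saline replicate 1, 2 or 3), Srsf7 (LPS replicate 2 or 4, saline replicate 1, 2 or 3) and Srsf12 (any of 11 libraries, adjusted p up to 0.15), and the number of members lower was 3 without LPS replicate 2 or saline replicate 1 and 4 without LPS replicate 4 or saline replicate 3.

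Without saline replicate 4 labelled Lcn2-/-, the rises not yet given were 0.31 for Srsf11, 0.30 for Hnrnpf, 0.27 for Hnrnph2, 0.24 for Hnrnpa3, 0.24 for Hnrnpc, 0.23 for Sf3b1, 0.19 for Hnrnpll, 0.16 for Hnrnpk, 0.16 for Sf3a3, 0.15 for Sf3b3, 0.12 for Hnrnpdl and 0.11 for Hnrnpa1. The falls not yet given had changes of -0.20 for Srsf12, -0.17 for Sf3a1, -0.14 for Hnrnpu and -0.077 for Hnrnpul2, and Hnrnph1 no longer passed (-0.094, adjusted p = 0.075).

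**Figure D2:**
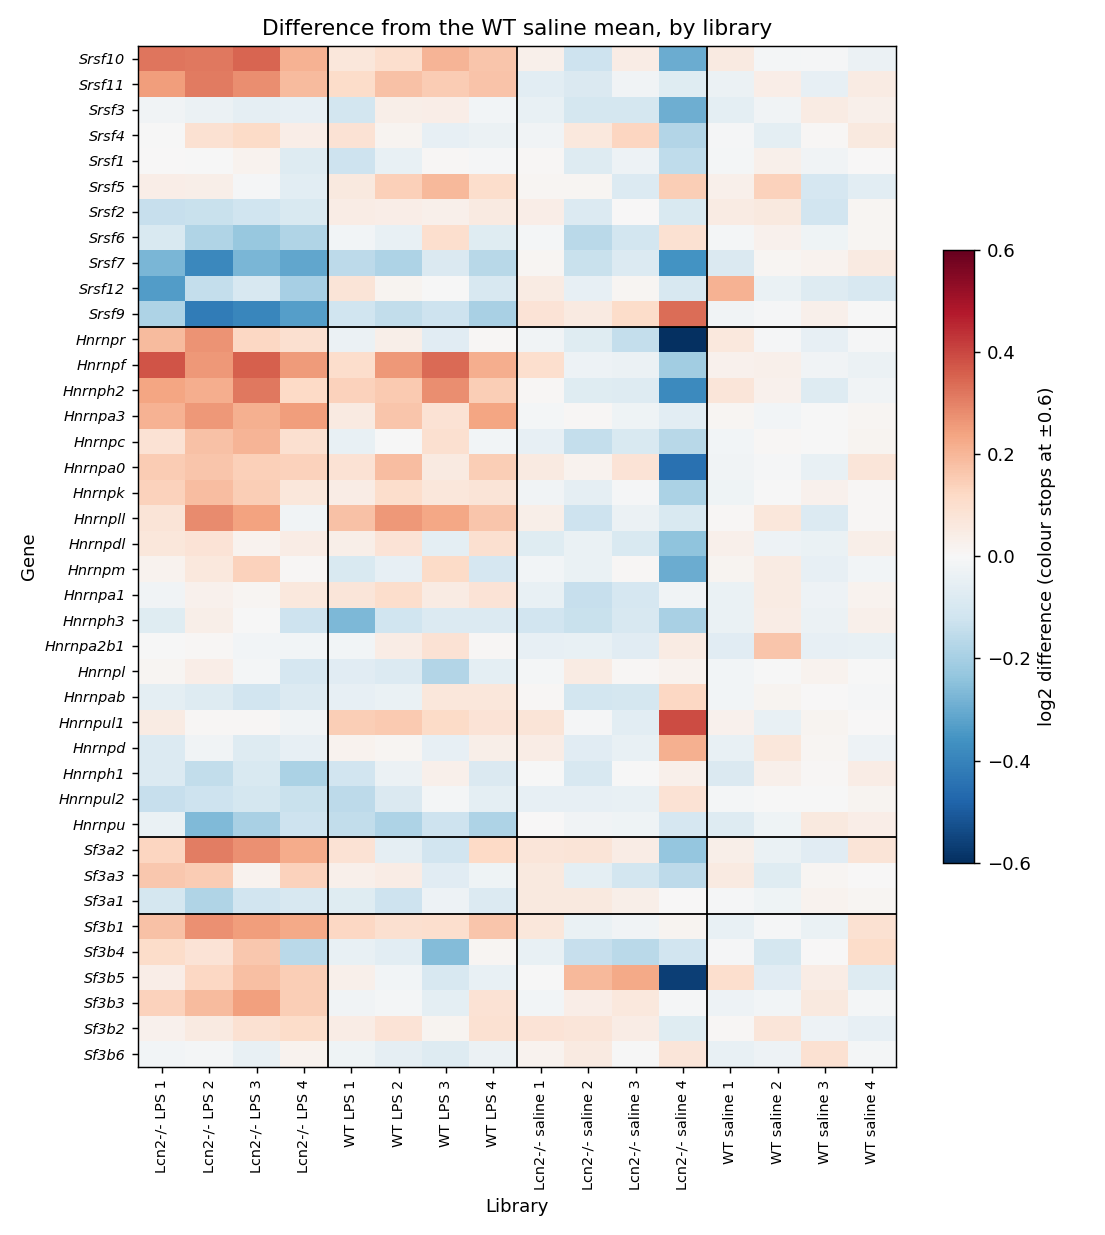
Difference of each gene (rows, grouped by family) from its WT saline mean in log2 (colour), in each of the 16 libraries (columns). Srsf10, Srsf11 and Hnrnpf are red and Srsf9 and Srsf7 blue across the LPS libraries labelled Lcn2-/-, and saline replicate 4 labelled Lcn2-/- differs from its group for Hnrnpr, Hnrnpa0 and Sf3b5.

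In WT brain, LPS moved fewer members past the test. Here 5 rose (Srsf11, Hnrnpa3, Hnrnpf, Hnrnpll and Sf3b1) and 3 fell (Hnrnpu, Hnrnph3 and Hnrnpl), which is 20% of the members, 12.5% higher and 7.5% lower. Among all genes tested, 25.3% were called, 11.4% higher and 13.9% lower, and the median change was 0.0039 log2 over the members, against -0.025 over all genes. With GC content and length trends removed, 4 members rose and 7 fell, 27.7% of all genes were called, and the median over the members was -0.022. By family, 1 of 11 Srsf genes, 3 of 20 Hnrnp genes and 1 of 6 Sf3b genes rose, 3 Hnrnp genes fell and no Sf3a gene passed.

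Srsf11 had 24.97, 26.2, 25.7 and 26.03 RPKM in WT LPS libraries, against 22.6, 23.8, 22.4 and 23.9 RPKM in WT saline libraries, with no overlap (log2 0.15 ± 0.03, adjusted p = 0.0027). Hnrnpa3 had 47.5, 51.4, 48.6 and 53.8 RPKM after LPS, against 46.1, 45.2, 45.6 and 46.0 RPKM after saline (log2 0.14 ± 0.03, adjusted p = 0.0072). Hnrnpf had 10.1, 11.2, 11.8 and 10.9 RPKM after LPS, against 9.53, 9.58, 9.22 and 9.13 RPKM after saline (log2 0.23 ± 0.06, adjusted p = 0.0093). This 1.17-fold rise of Hnrnpf was the largest change of a member in WT brain. Hnrnpll had 5.52, 5.85, 5.74 and 5.48 RPKM after LPS, against 4.91, 5.12, 4.62 and 4.91 RPKM after saline (log2 0.21 ± 0.06, adjusted p = 0.020). Sf3b1 had 28.7, 28.2, 28.3 and 29.6 RPKM after LPS, against 25.6, 26.3, 25.7 and 28.1 RPKM after saline (log2 0.12 ± 0.04, adjusted p = 0.020). For all 5 the WT LPS libraries lay above the WT saline libraries without overlap.

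Hnrnpu had 52.9, 51.7, 53.8 and 51.6 RPKM in WT LPS libraries, against 55.7, 57.7, 61.2 and 60.5 RPKM in WT saline libraries (log2 -0.16 ± 0.04, adjusted p = 0.013). Hnrnph3, a shorter relative of Hnrnph1, had 12.2, 13.6, 14.0 and 13.9 RPKM after LPS, against 14.4, 15.2, 14.4 and 15.1 RPKM after saline (log2 -0.14 ± 0.05, adjusted p = 0.041). Hnrnpl, which binds CA repeats, had 27.9, 27.6, 25.9 and 28.1 RPKM after LPS, against 28.9, 29.2, 29.7 and 29.2 RPKM after saline (log2 -0.10 ± 0.03, adjusted p = 0.045). All 3 were below the saline libraries in every WT LPS library. Groups without overlap did not set the called members apart. In WT brain, Hnrnph2, Hnrnpk, Hnrnpul1, Sf3a1, Srsf7, Srsf9 and Srsf10 did not overlap either and did not pass. The share of all genes without overlap was not counted.

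These counts moved with single libraries, and the fit shares 1 estimate of the spread over all groups. Without saline replicate 4 labelled Lcn2-/-, which is no part of the comparison, 12 members were called higher and 6 lower in WT brain, and 34.7% of all genes, against 25.3%, while the changes themselves stayed the same. The number higher was 3 without WT saline replicate 3, and the number lower was 1 without WT LPS replicate 1 or 2, WT saline replicate 2, 3 or 4, or saline replicate 1 labelled Lcn2-/-. Srsf11, Hnrnpa3, Hnrnpf and Hnrnpu passed under every alternative. The call of Hnrnpll ended without WT LPS replicate 2 or WT saline replicate 3, that of Sf3b1 without WT LPS replicate 4, without WT saline replicate 1 or 3 or with GC content and length trends removed, and those of Hnrnph3 and Hnrnpl under 7 and 13 of 27 alternatives.

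Both LPS comparisons called Srsf11, Hnrnpa3, Hnrnpf, Hnrnpll and Sf3b1 higher and Hnrnpu lower. A further 17 members were called in libraries labelled Lcn2-/- and not in WT, 11 higher and 6 lower, Hnrnph3 and Hnrnpl in WT and not in those labelled Lcn2-/-, and 15 in neither. Over all genes tested, too, more were called under the Lcn2-/- label, 48.3%, than in WT, 25.3%. The counts of shared and unshared calls were not taken over all genes. Across the 40 members, the change in libraries labelled Lcn2-/- and the change in WT libraries had a Pearson correlation of 0.60 and a Spearman correlation of 0.58, given as a description of genes measured in the same libraries. Passing in one genotype and not in the other is no test of a difference, which the interaction below gives.

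**Figure D3:**
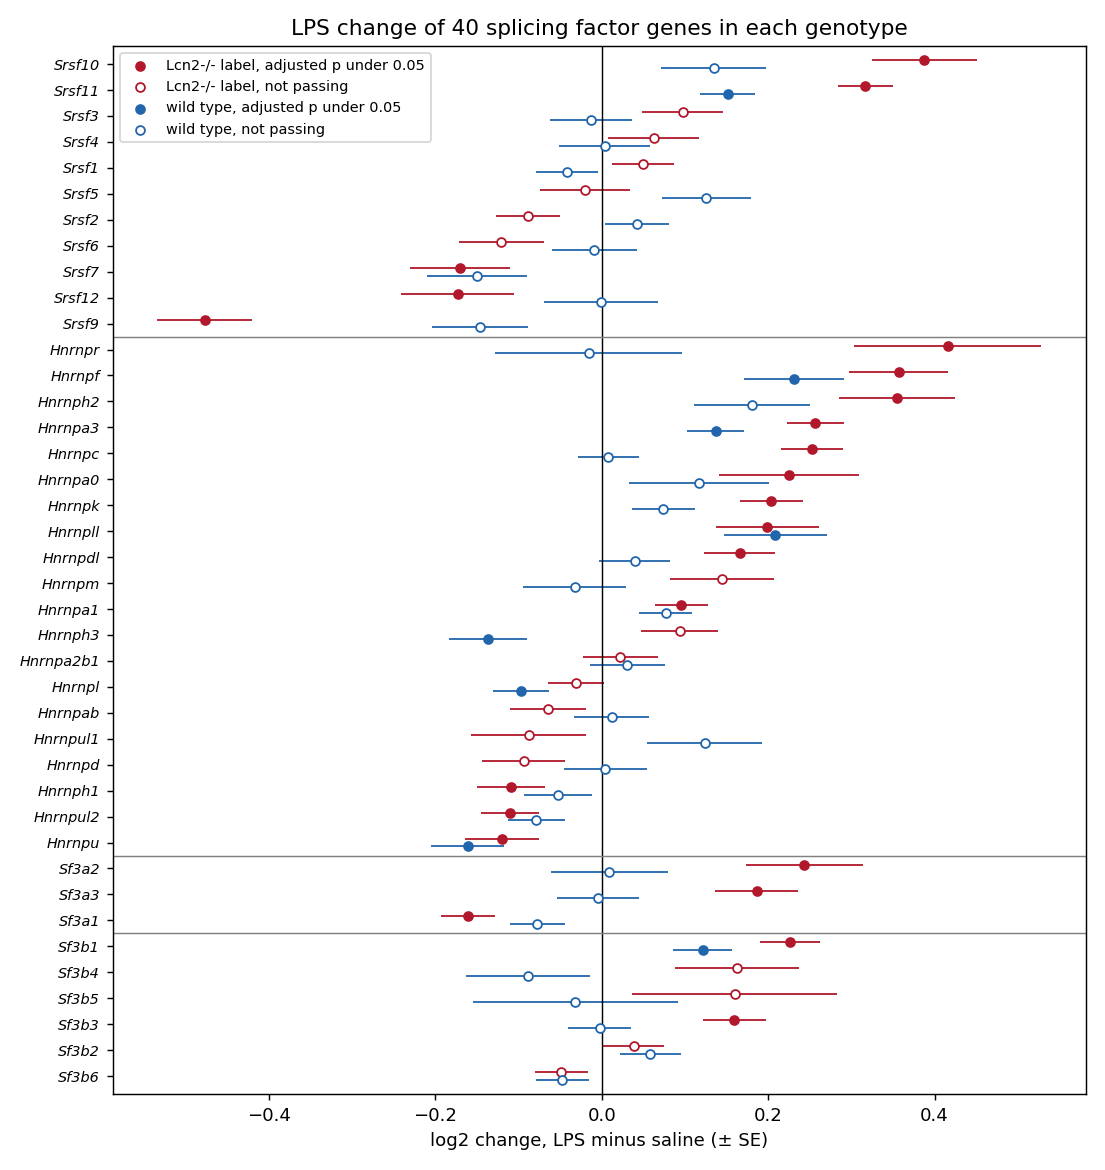
Change after LPS (x axis, log2, LPS minus saline, bars ± SE) of each gene in libraries labelled Lcn2-/- (red) and WT libraries (blue); filled points have an adjusted p under 0.05. Srsf9 lies farthest to the left at -0.48 and Hnrnpr farthest to the right at 0.42, both in libraries labelled Lcn2-/-.

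The interaction asked whether the LPS change differed between the genotype labels. It passed for 4 members, Hnrnpc, Hnrnph3 and Srsf11 higher and Srsf9 lower, which is 10% of the members, 7.5% higher and 2.5% lower. Among all genes tested, 8.82% were called, 3.9% higher and 4.92% lower, and the median interaction was 0.079 log2 over the members, against -0.0026 over all genes, and 0.028 over the members without saline replicate 4 labelled Lcn2-/-.

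The 4 genes showed different arrangements of group means. For Srsf9, the WT libraries had 18.4, 18.1, 18.4 and 17.5 RPKM after LPS, against 19.7, 19.9, 20.5 and 19.98 RPKM after saline, a change of -0.15 that did not pass (adjusted p = 0.076). The fall was deeper under the Lcn2-/- label, with an interaction of -0.33 ± 0.08 (adjusted p = 0.023). For Hnrnpc, the WT libraries had 35.4, 36.5, 39.1 and 36.2 RPKM after LPS, against 36.1, 36.7, 36.5 and 37.0 RPKM after saline, overlapping groups with a change of 0.01, and the interaction was 0.24 ± 0.05 (adjusted p = 0.014). Srsf11 rose under both labels, by 0.32 with the Lcn2-/- label and by 0.15 in WT, and the interaction was 0.17 ± 0.05 (adjusted p = 0.040).

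Hnrnph3 had 14.0, 15.1, 14.7 and 13.5 RPKM in LPS libraries labelled Lcn2-/- and 13.6, 13.4, 13.8 and 12.9 RPKM in saline libraries with that label, so that its change was 0.09 there (adjusted p = 0.11), against -0.14 in WT brain. Its interaction was 0.23 ± 0.07 (adjusted p = 0.042). In saline libraries, the Lcn2-/- label and WT differed by -0.11 log2 for Hnrnpc, -0.14 for Hnrnph3 and 0.15 for Srsf9. These saline differences did not pass the test (adjusted p = 0.40 or 0.41), and they enter the interaction values. Hnrnpr had the largest interaction in size, 0.43 ± 0.16, which did not pass (adjusted p = 0.096), with 6.97, 7.33, 6.82 and 7.18 RPKM in WT LPS libraries, against 7.47, 7.12, 6.91 and 7.12 RPKM in WT saline libraries. Without saline replicate 4 labelled Lcn2-/- it was 0.27.

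Without saline replicate 4 labelled Lcn2-/- the 4 interactions still passed, at 0.23 for Hnrnpc, 0.21 for Hnrnph3, 0.16 for Srsf11 and -0.27 for Srsf9. The call of Srsf9 ended without LPS replicate 2 or 3 labelled Lcn2-/- or WT LPS replicate 1 (adjusted p up to 0.053), those of Hnrnph3 and Srsf11 ended in 12 and 14 of 26 alternatives, and 1 member, Hnrnpc, was called higher without LPS replicate 2 or 3 or saline replicate 2 labelled Lcn2-/-, WT LPS replicate 1 or 2, or WT saline replicate 2 or 4.

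**Figure D4:**
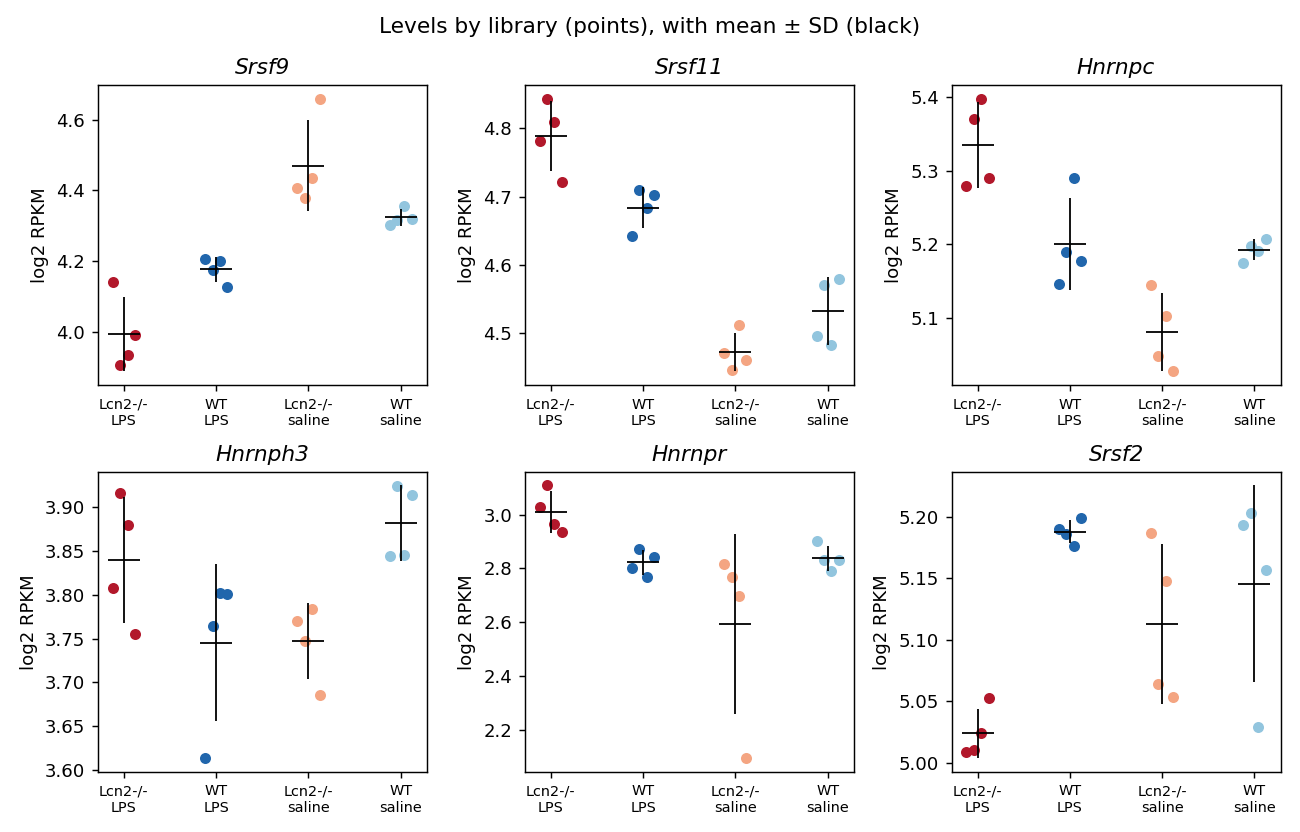
Level in log2 RPKM (y axis, scaled for each gene and not starting at 0) of Srsf9, Srsf11, Hnrnpc, Hnrnph3, Hnrnpr and Srsf2 in the 4 groups (x axis); points are libraries, the black line is the mean and its bar the SD. For Srsf9 all LPS points lie below the saline points of the same label, and the low saline library of Hnrnpr at 2.10 is replicate 4 labelled Lcn2-/-.

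The promoters of the 4 members that passed the interaction test are shown. Their share of the members, 10%, was near that of all genes tested, 8.82%, and no link between motifs and the interaction was tested. Each is the RefSeq window of 250 bases before to 50 bases after a transcription start (GRCm38.p6), 5′ to 3′ on the gene's strand. Capitals mark matches to 6 motifs searched on both strands, which overlapped no other motif: CCAAT boxes (CCAAT, or ATTGG on the other strand) in Hnrnpc, an ETS core (CCGGAA) in Srsf11 and a match to the NF-kB consensus in Srsf9, where 1 stretch at the 3′ end matches on both strands, while Hnrnph3 had no match. For Srsf11, 1 of 2 windows in the table is shown.
Hnrnpc promoter, chr14:52103972-52104271, minus strand: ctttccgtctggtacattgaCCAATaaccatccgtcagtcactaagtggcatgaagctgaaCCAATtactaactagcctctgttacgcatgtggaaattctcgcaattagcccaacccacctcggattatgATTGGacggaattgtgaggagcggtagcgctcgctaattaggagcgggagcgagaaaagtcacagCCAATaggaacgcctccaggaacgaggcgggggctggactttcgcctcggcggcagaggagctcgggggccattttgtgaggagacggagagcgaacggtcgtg
Srsf11 promoter, chr3:158036557-158036856, minus strand: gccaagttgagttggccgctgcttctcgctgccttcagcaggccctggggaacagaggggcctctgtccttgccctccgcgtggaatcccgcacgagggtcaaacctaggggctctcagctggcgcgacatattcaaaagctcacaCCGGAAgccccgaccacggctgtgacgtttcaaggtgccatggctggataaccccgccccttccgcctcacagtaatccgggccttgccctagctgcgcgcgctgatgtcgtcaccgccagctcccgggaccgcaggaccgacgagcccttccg
Srsf9 promoter, chr5:115326927-115327226, plus strand: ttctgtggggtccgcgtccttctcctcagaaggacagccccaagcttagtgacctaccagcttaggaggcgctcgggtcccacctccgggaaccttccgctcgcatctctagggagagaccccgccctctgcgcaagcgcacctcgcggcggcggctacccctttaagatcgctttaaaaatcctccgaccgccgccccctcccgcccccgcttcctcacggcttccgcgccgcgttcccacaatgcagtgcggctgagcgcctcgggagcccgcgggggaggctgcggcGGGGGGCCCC
Hnrnph3 promoter, chr10:63023800-63024099, minus strand: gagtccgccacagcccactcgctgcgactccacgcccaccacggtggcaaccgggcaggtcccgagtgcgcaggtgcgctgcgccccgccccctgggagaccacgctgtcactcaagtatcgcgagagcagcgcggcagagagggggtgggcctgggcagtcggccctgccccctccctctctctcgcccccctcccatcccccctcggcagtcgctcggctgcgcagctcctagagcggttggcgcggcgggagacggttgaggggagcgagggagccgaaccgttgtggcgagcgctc

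The 4 windows differ in what they hold. Hnrnpc had 4 CCAAT boxes, Srsf11 had 1 ETS core and Srsf9 the NF-kB match, in windows of 54.3%, 65.0% and 69.0% GC, and the Hnrnph3 window had 73.0% GC. Windows were found for 36 of the 40 members, some with more than 1 start, 49 windows in all, with none for Hnrnpll, Hnrnpul2, Sf3b4 and Sf3b5. The ETS core was in 49.0% of the member windows, against 14.9% of all promoter windows in the table, and the CCAAT box in 49.0%, against 37.4%. The TATA box (TATAAA) was in 10.2%, against 13.6%, an NRF1 motif (GCATGCGC) in 6.12%, against 2.71%, the STAT motif (TTCNNNGAA) in 10.2%, against 8.30%, and the NF-kB motif in 6.12%, against 8.46%. These are matches of letters, and no binding was measured here.

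After LPS, 8 members differed between the genotype labels, 5 higher (Sf3b3, Hnrnpc, Srsf11, Sf3a2 and Sf3b1) and 3 lower (Srsf2, Srsf9 and Srsf6) under the Lcn2-/- label. That is 20% of the members, 12.5% higher and 7.5% lower, against 15.8% of all genes tested, 7.04% higher and 8.74% lower. The 3 lower members are all SR protein genes, 3 of 11, while 1 other Srsf gene, Srsf11, was higher. Of the 9 SF3 genes 3 were higher. Of all these calls only those of Sf3b3 and Srsf2 held under every alternative, and the counts moved with single libraries, as given below. The median difference was 0.031 log2 over the members, -0.12 over the Srsf genes and -0.0098 over all genes tested. This comparison shares its LPS libraries with those above.

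Sf3b3 had 12.8, 13.3, 13.8 and 12.9 RPKM in LPS libraries labelled Lcn2-/-, against 11.5, 11.6, 11.2 and 12.4 RPKM in WT LPS libraries, with no overlap (log2 0.18 ± 0.04, adjusted p = 0.0051). Srsf2 had 32.2, 32.2, 32.5 and 33.2 RPKM in those labelled Lcn2-/-, against 36.5, 36.4, 36.2 and 36.7 RPKM in WT LPS libraries (log2 -0.16 ± 0.04, adjusted p = 0.010). Both LPS groups of Srsf2 were narrow and did not overlap, while its saline libraries had 36.4, 33.4, 35.4 and 33.2 RPKM under the Lcn2-/- label and 36.6, 36.8, 32.6 and 35.7 RPKM in WT, and overlapped. Srsf6 (SRp55), an SR protein that binds exonic enhancers, had 16.6, 15.7, 15.2 and 15.7 RPKM, against 17.6, 17.2, 19.0 and 16.9 RPKM in WT LPS libraries (log2 -0.16 ± 0.05, adjusted p = 0.045).

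Sf3a2 had 9.48 to 10.7 RPKM, against 9.20, 8.34, 8.01 and 9.42 RPKM in WT LPS libraries (log2 0.22 ± 0.07, adjusted p = 0.042), and its WT saline libraries had 8.87, 8.43, 8.27 and 9.13 RPKM. Sf3b1 and Srsf11 were higher by 0.11 and 0.11 log2 with no overlap (adjusted p = 0.048 and 0.041), and the differences of Hnrnpc, 0.13, and Srsf9, -0.19, passed with overlapping groups (adjusted p = 0.025 and 0.040). Among the other members, Srsf12 (-0.19), Hnrnpr (0.19) and Srsf10 (0.17) had the largest differences that did not pass (adjusted p = 0.067, 0.28 and 0.085). Sf3b3 and Srsf2 passed under every alternative. The other 6 calls each ended under at least 5 of 27 alternatives (adjusted p up to 0.14), the number higher was 10 and the number lower 7 without saline replicate 4 labelled Lcn2-/- (29.8% of all genes), and the counts were 1 higher and 1 lower without LPS replicate 2 or 3 labelled Lcn2-/- or WT LPS replicate 1 or 2, 2 and 1 without WT LPS replicate 3, and 1 lower without LPS replicate 4 labelled Lcn2-/- or WT saline replicate 2 or 4, where WT saline replicate 2 also left 3 higher.

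After saline, no member passed the test between the labels. The limma test called 0 members, with 8 at an unadjusted p under 0.05, and it called 0.0461% of all genes tested, 0.0346% higher and 0.0115% lower under the Lcn2-/- label. The median difference was -0.037 log2 over the members, against -0.0048 over all genes. The 95% intervals of the 40 differences all lay between -0.48 and 0.27 log2, which bounds what these libraries leave room for. Hnrnpr had the largest difference, -0.24 ± 0.11 (adjusted p = 0.45), with its lowest value in saline replicate 4 labelled Lcn2-/-, and -0.079 without that library. The count without it was again 0.

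The 13 members that passed in no comparison were Srsf1, Srsf3, Srsf4, Srsf5, Hnrnpa2b1, Hnrnpab, Hnrnpd, Hnrnpm, Hnrnpul1, Sf3b2, Sf3b4, Sf3b5 and Sf3b6. They include Srsf1 (SF2/ASF), an SR protein that acts in both splicing and translation, with 27.4 to 31.0 RPKM over all 16 libraries, and Sf3b6 (p14), which contacts the branch point adenosine, with 26.6 to 29.9 RPKM. The 27 others passed in at least 1 comparison, a count that was not taken over all genes. Some members share exonic bases with a neighbour, and the sources used here do not say whether counting used strand, so that reads could not be told apart there. The shared part was 43.0% of the exonic bases of Srsf4 (with Gm12992), 29.1% of Hnrnpab (with Phykpl), 16.1% of Sf3a2 (with Plekhj1), 15.6% of Srsf2 (with Mettl23) and 13.5% of Hnrnpf (with 4933440N22Rik), all on the opposite strand, and 14.7% of Hnrnpm (with March2) on the same strand. Srsf2 shared a further 9.74% with Mfsd11 on the opposite strand. These neighbours differed in mean log2 RPKM over all libraries. Plekhj1 lay at 4.33, above Sf3a2 at 3.17, and Mettl23 at 4.39, against 5.12 for Srsf2. The neighbour of Hnrnpf lay at -0.50, against 3.35 for Hnrnpf. The part of neighbour reads in the calls of Sf3a2 and Srsf2 was not tested. Hnrnpa1 and Hnrnpa3 also have many processed pseudogene copies, to which reads could be split.

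The tissue is a mixture of cell types, in which fewer cells of a type and less RNA per cell cannot be told apart. The 8 neuron markers were all detected, with summed levels of 790 to 853 RPKM in LPS libraries labelled Lcn2-/-, 817 to 846 in WT LPS, 817 to 831 in saline libraries labelled Lcn2-/- and 781 to 857 in WT saline libraries. After LPS, 1 neuron marker rose and 2 fell under the Lcn2-/- label, and none passed in WT. Of 6 oligodendrocyte markers, 1 rose and 2 fell under that label, and 2 fell in WT. The summed level of 6 microglia markers was 47.5 to 52.8 RPKM after LPS, against 66.8 to 75.8 RPKM after saline, under the Lcn2-/- label, and 49.0 to 55.3 RPKM after LPS, against 70.1 to 73.9 RPKM after saline, in WT. After LPS, 6 of the 6 fell under the Lcn2-/- label and 5 in WT. The 7 astrocyte markers summed to 367 to 403 RPKM after LPS, against 282 to 318 RPKM after saline, under the Lcn2-/- label, and to 356 to 384 RPKM, against 287 to 304 RPKM, in WT. Of these 7, 3 rose under each label. Gfap, an intermediate filament of reactive astrocytes, averaged 124 RPKM after LPS, against 35.4 RPKM after saline, under the Lcn2-/- label, and 108 RPKM, against 41.2 RPKM, in WT, whereas Slc1a2, a glutamate transporter, averaged 114 RPKM, against 124 RPKM, and 121 RPKM, against 119.5 RPKM. Of 6 endothelial markers, 1 rose and 4 fell after LPS under each label, and between the labels after LPS 1 was higher and 2 were lower under the Lcn2-/- label. Their sum was 42.4 to 52.5 RPKM after LPS, against 39.2 to 51.1 RPKM after saline, under the Lcn2-/- label, and 39.98 to 47.8 RPKM, against 51.04 to 60.1 RPKM, in WT. Of 4 pericyte and smooth muscle markers, 3 fell under each label, with sums of 33.96 to 39.1 RPKM after LPS, against 41.3 to 48.6 RPKM after saline, under the Lcn2-/- label, and 36.2 to 40.1 RPKM, against 47.4 to 48.9 RPKM, in WT. The 5 neutrophil markers summed to 9.32 to 23.5 RPKM after LPS, against 4.15 to 5.92 RPKM after saline, under the Lcn2-/- label, and to 9.26 to 15.5 RPKM, against 2.37 to 6.96 RPKM, in WT. Of these 5, 3 stayed under 0.5 RPKM in all libraries. The part of these marker changes in the splicing factor results was not tested.

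Every kinase gene of the SR proteins that passed the test after LPS fell. Of 8 SR protein kinase genes, none rose and 6 fell in libraries labelled Lcn2-/-, and none rose and 4 fell in WT libraries, with median changes of -0.26 and -0.12 log2. That is 75% and 50% lower, against 27.7% and 13.9% of all genes tested. The list was chosen with earlier results of these data known, so these shares are a description. Clk1, a nuclear kinase that releases SR proteins from speckles, had mean levels of 12.8 RPKM after LPS, against 19.9 RPKM after saline, under the Lcn2-/- label (log2 -0.63 ± 0.06, adjusted p = 6.5e-07). In WT libraries Clk1 had 18.1 RPKM after LPS, against 20.7 RPKM after saline (log2 -0.19 ± 0.06, adjusted p = 0.031), and its interaction of -0.44 ± 0.09 passed (adjusted p = 0.0089). Clk2 fell by 0.33 on the log2 scale under the Lcn2-/- label, and Srpk3 and Srpk1 fell by 0.57 and 0.38 in WT brain. Between the labels after LPS, Clk1 (-0.50) and Clk4 (-0.34) were lower under the Lcn2-/- label, and Srpk3 (0.32) and Dyrk1a (0.17) were higher. Srpk2, the highest of the list at 28.1 to 29.5 RPKM in the group means, passed in none of the 5 comparisons.

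Genes of the snRNP particles that the members work with were counted in the same way. Of 19 genes of the U1 and U2 particles and of U2AF, which reads the end of the intron, 6 rose and 2 fell under the Lcn2-/- label, and 1 rose and 1 fell in WT. The shares called, 42.1% and 10.5%, were below those of all genes tested, 48.3% and 25.3%. By direction, 31.6% were higher and 10.5% lower under the Lcn2-/- label, against 20.7% and 27.7% of all genes tested. Snrpa1, a U2 particle protein, rose by 0.50 ± 0.08 (adjusted p = 7.8e-05) and Htatsf1, an SF3B1-binding protein, by 0.25 under that label, where U2af2 (-0.16) and Ddx46 (-0.14), the helicase that prepares the U2 particle, fell. In WT, Dhx15 rose by 0.16 and Luc7l3 fell by 0.13. Ddx46 (-0.14) and Htatsf1 (0.14) differed between the labels after LPS, and the interactions of Rbm17 (0.24) and Htatsf1 (0.22) passed. Snrnp70, the highest of the list with group means of 94.6 to 101 RPKM, passed in no comparison.

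Of 8 Sm core genes, which form the ring of the particles, Snrpb rose (0.23) and Snrpf (-0.20) and Snrpg (-0.19) fell under the Lcn2-/- label, and Snrpe fell by 0.16 in WT, with an interaction of 0.28. The shares called were 37.5% and 12.5%, again below those of all genes. Snrpn, the neuronal form, was the highest, at 308 RPKM in LPS libraries labelled Lcn2-/- and 316 RPKM in WT saline libraries, and passed in no comparison. Of 32 genes of the U4/U6.U5 particle, the Prp19 complex and the spliceosomal helicases, 15 rose and 2 fell under the Lcn2-/- label, with a median of 0.14 log2, and 1, Cd2bp2 (0.23), rose in WT. That is 46.9% higher and 6.25% lower under the label, against 20.7% and 27.7% of all genes tested, and 3.13% called in WT, against 25.3%. The largest were Prpf38a (0.51 ± 0.06, adjusted p = 9.9e-06) and Eftud2 (0.50 ± 0.06, adjusted p = 7e-06), a GTPase of the U5 particle, with Crnkl1 (-0.41) and Prpf4b (-0.34) lower. Both Prpf38a (0.42) and Eftud2 (0.37) had interactions that passed, and after LPS they were higher under the Lcn2-/- label by 0.27 and 0.32, whereas Prpf38b was lower (-0.18). Prpf8, the highest uncalled gene of this list under the Lcn2-/- label, changed by 0.08 (adjusted p = 0.088). No gene of these 4 lists passed the test between the labels after saline.

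The counts of these lists were also taken without saline replicate 4 labelled Lcn2-/-. Under the Lcn2-/- label after LPS, none of the kinase genes rose and 5 fell, 6 genes of the U1, U2 and U2AF list rose and 1 fell, 2 Sm core genes rose and 1 fell, and 14 genes of the U4/U6.U5 list rose and 4 fell. In the same order, 5, 7, 1 and 16 of these calls were shared with the calls above. The median changes were then -0.20, 0.049, 0.026 and 0.088 log2, against -0.26, 0.070, -0.012 and 0.14 with all libraries. In WT brain, whose own libraries were the same, the kinase counts did not move, while 3 U1, U2 and U2AF genes rose and 2 fell, 1 Sm core gene rose and 1 fell, and 5 genes of the U4/U6.U5 list rose and 2 fell.

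**Figure D5:**
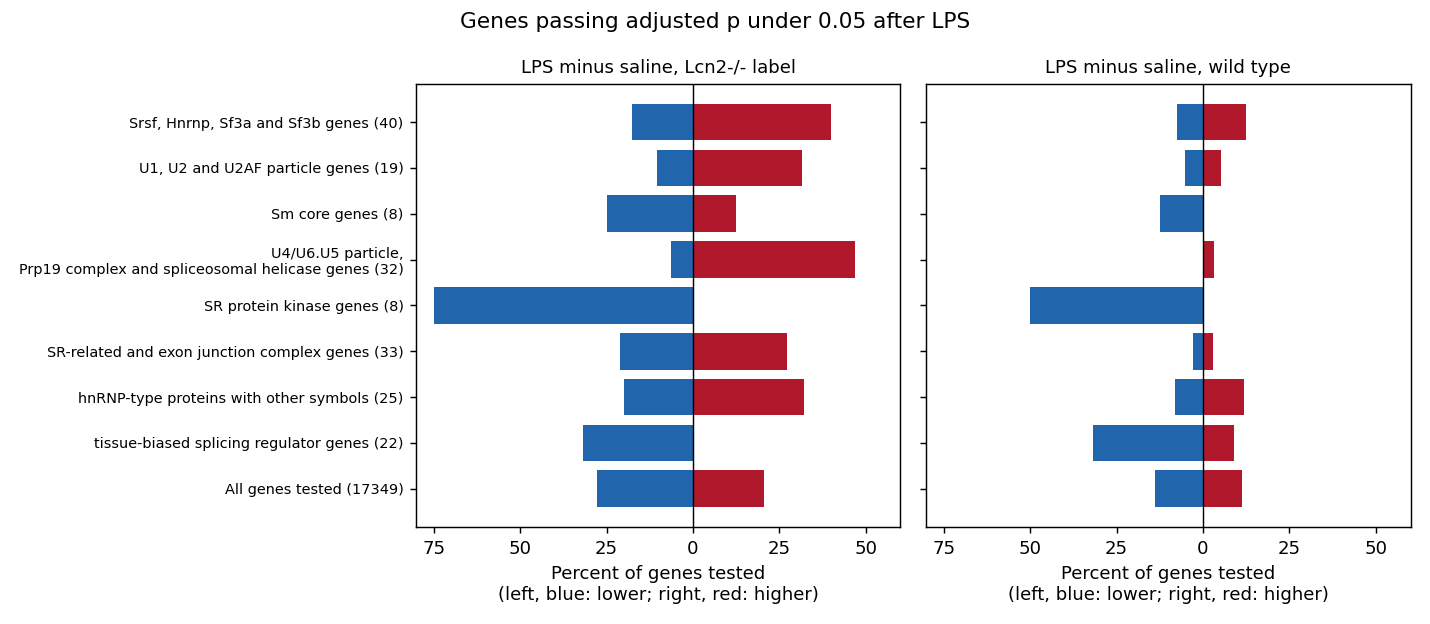
Percent of the genes of each list with an adjusted p under 0.05 after LPS, lower to the left in blue and higher to the right in red, in libraries labelled Lcn2-/- (left panel) and WT libraries (right panel); the number of genes tested is in brackets. SR protein kinase genes lie wholly to the left in both panels, and the bottom bar gives all 17349 genes tested.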

How the data were processed

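Total RNA of 16 perfused mouse hemi-brains was sequenced, 4 libraries in each of 4 groups taken from the labels. The authors deposited 1 table of log2 RPKM values per gene, after conditional quantile normalization (CQN), as the name of the deposited table says; its column names speak of gene counts, but the values are fractional and below 0 in part. The genome build was mm10, per the submitters' processing notes. An aligner, counter, annotation or strand setting was not given in the sources used here. No counts were used, so depth is unknown and no counting interval is given; the number of libraries limits the precision. Gene symbols came from GENCODE mouse M21, which matched 32695 of 33289 gene IDs, and 0 columns of the table were left unused.

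With limma 3.58.1 (R 4.3.3), the deposited log2 values of the 16 libraries were modelled by 4 group means, with a trend of the variance on the mean. Genes with a log2 RPKM of at least -1 (0.5 RPKM) in at least 3 libraries were tested. Tests were two-sided, p-values were adjusted by Benjamini-Hochberg over all 17349 genes, and genes under 0.05 were called. The interaction is the LPS change under the Lcn2-/- label minus that in WT. The fit was tested on simulated data with 200 changed genes. Changes of 0.2 log2 were recovered in 20.9% for LPS in WT and 28.4% for LPS under the Lcn2-/- label. The shares were 16.4% for the label after saline, 13.4% for the label after LPS and 2.99% for the interaction. Changes of 1 log2 were recovered in 78.8% for the interaction and in 89.4% or more elsewhere. A member that did not pass may therefore still have changed. Figures were drawn with matplotlib 3.10.9.

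The members and lists were chosen with earlier results of these data known. Values in every library are given for the called members with the lowest adjusted p in each comparison, up to 6 per direction, for the highest member of each family and for the largest uncalled change. From each list, up to 2 called genes per direction and comparison and the highest uncalled gene are named. Alternatives were other filters, pseudocounts, scalings, variance settings and libraries left out.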

Additional observations from a re-analysis of the deposited data

Results flagged for a closer look

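Among 160 sets of 4 libraries of a group, 1 for each member and group, 7 had a library far from the other 3, where chance alone gives about 1 in 20. Of the 7, 5 were in saline replicate 4 labelled Lcn2-/-. There, the log2 RPKM of Hnrnpr was 2.10, against 2.70 to 2.82 in the other libraries of the group. Hnrnpa0 was 5.66, against 6.13 to 6.19, Hnrnpm 3.94, against 4.19 to 4.24, and Sf3a2 2.89, against 3.16 to 3.19. Hnrnpul2 was 5.26 in the same library, against 5.12 to 5.13. Of the remaining sets, Hnrnpa2b1 was 7.05 log2 RPKM in WT saline replicate 2, against 6.81 to 6.84, and Hnrnph2 was 4.06 in WT LPS replicate 3, against 3.92 to 3.94. The cause was not tested.

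The LPS change differed between the genotype labels by the interaction test for 4 members, 10% of the 40, against 8.82% of all genes tested. The difference was 0.24 log2 for Hnrnpc, 0.23 for Hnrnph3 and 0.17 for Srsf11, with the larger value under the Lcn2-/- label. For Srsf9 it was -0.33 log2. The calls of Hnrnph3, Srsf11 and Srsf9 ended in 12, 14 and 3 of 26 alternatives.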

How the results depend on the processing

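No paired analysis was possible because the labels number the samples in 1 sequence, with no number shared between groups. No called member changed sign under any alternative run, whereas the median change in WT brain after LPS, 0.0039, was -0.022 with GC content and length trends removed and -0.0021 without WT saline replicate 2. In WT brain after LPS, members called lower were 7 with GC content and length trends removed, 1 without the variance trend, 7 with array weights and 5 with the compared groups alone, and members higher were 11 with array weights and 10 with the compared groups alone. Under the Lcn2-/- label after LPS, the median change was 0.057 log2 with GC content and length trends removed and 0.047 with array weights, and members lower were 4 without the variance trend and 3 with the compared groups alone. Between the labels after LPS, members higher and lower were 2 and 1 without a filter, 2 and 1 without the variance trend, and 8 and 7 with the compared groups alone, and 7 were lower with array weights. For the interaction, 1 was higher without a filter, 1 without the variance trend and 5 with array weights, which also gave 2 lower and a median of 0.038. The compared groups alone cannot give the interaction. Leaving out 1 library gave ranges, for members higher, lower and the median change, of 3 to 12, 1 to 6 and -0.0021 to 0.014 for LPS in WT, 14 to 17, 3 to 7 and 0.047 to 0.11 for LPS under the Lcn2-/- label, 0 to 0, 0 to 0 and -0.054 to -0.021 for the label after saline, 1 to 10, 1 to 7 and 0.019 to 0.037 for the label after LPS, and 1 to 4, 0 to 1 and 0.028 to 0.10 for the interaction. Without a filter, over all 33289 genes, the median change was -0.32 under the Lcn2-/- label and -0.22 in WT after LPS. The low end of the values differed with treatment in every library. The lower quartile of log2 RPKM over all genes was -5.78 to -4.58 in LPS libraries, against -4.12 to -2.73 in saline libraries. Saline replicate 4 labelled Lcn2-/- had the highest. Whether this difference is technical cannot be told apart from the LPS treatment. The cause was not tested.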

Other observations

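Further lists of RNA-binding protein genes were counted after LPS. Of all genes tested, 48.3% were called under the Lcn2-/- label, 20.7% higher and 27.7% lower, and 25.3% in WT, 11.4% higher and 13.9% lower. Of 33 genes of SR-related proteins and the exon junction complex, 9 rose and 7 fell under the Lcn2-/- label, and 1 rose and 1 fell in WT, so that 48.5% and 6.06% were called, near and below the shares of all genes. Tra2b, an SR-like activator of alternative exons, rose by 0.38 ± 0.10 log2 (limma adjusted p = 0.0042) and Magohb by 0.37, whereas Srrm4, the neuronal microexon factor, changed by -0.40 ± 0.05 (adjusted p = 1.9e-05) and Tra2a by -0.37. In WT, Thoc2 rose by 0.24 and Srrm3 fell by 0.16. The interaction passed for Rbm6 (0.30), Rbm39 (0.23), Srek1 (-0.32) and Srrm4 (-0.29), and Rbm6 (0.24), Rbm5 (-0.27) and Srek1 (-0.21) differed between the labels after LPS. Ddx39b was the highest uncalled gene of the list under the Lcn2-/- label (0.06).

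Of 25 hnRNP-type genes with other symbols, 8 rose and 5 fell under the Lcn2-/- label, and 3 rose and 2 fell in WT, which is 52% and 20% called. The cold-inducible gene Rbm3 rose by 0.48 and Ptbp3 by 0.45, and Rbmx (-0.34) and Khsrp (-0.26), which promotes the decay of AU-rich mRNAs, fell. In WT, Cirbp (0.26) and Fubp3 (0.24) rose and Pcbp4 (-0.23) and Rbmx (-0.19) fell. The interaction of Tardbp (0.15) passed, and Ptbp1 (0.15), Tardbp (0.10), Fubp3 (-0.19) and Ewsr1 (-0.17) differed between the labels after LPS. Pcbp1, at 106 to 113 RPKM in the group means, passed in no comparison.

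Of 25 tissue-biased splicing regulators, 22 were tested, without Esrp1, Esrp2 and Mbnl3. None rose and 7 fell under the Lcn2-/- label, and 2 rose and 7 fell in WT, which is 31.8% and 40.9% called. The neuronal genes Celf3 (-0.55 ± 0.07, adjusted p = 1.2e-05) and Nova2 (-0.42) fell under the Lcn2-/- label. In WT, Msi1 (-0.35) and Qk (-0.34), a glial regulator, fell, and Rbfox1 (0.22) and Mbnl2 (0.22) rose. Celf4, the highest of the list, passed in no comparison, and no gene of the list passed the test between the labels after LPS or of the interaction. No gene of these lists passed the test between the labels after saline. Without saline replicate 4 labelled Lcn2-/-, LPS under that label gave 9 higher and 6 lower SR-related genes, 9 and 7 hnRNP-type genes, and 0 and 8 tissue-biased regulators, and LPS in WT gave 4 and 2, 7 and 2, and 4 and 7. After LPS, 3 tissue-biased regulators were then lower under the Lcn2-/- label, and 2 had a lower interaction.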
